A study of Rattus norvegicus with 10 samples.

Results

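The 34 oligodendrocyte and myelin genes described here were chosen by gene symbol from the 32545 genes of a table of RNA-seq counts made on CA1 tissue of slices of the rat hippocampus, and all 34 were found. Oligodendrocytes wrap axons in myelin, a compacted membrane rich in galactolipids and cholesterol that is held together by a small set of abundant proteins. The cells arise from precursors marked by Pdgfra, under the control of Sox10, Olig1 and Olig2, and the factor Myrf then switches on the myelin genes. In the hippocampus, myelin lies mainly in the fibre layers around the pyramidal cells. The members were divided by role into 15 structural myelin genes, 6 genes of lipid and metabolic enzymes, 6 genes of transport, receptors and signalling, and 7 lineage and precursor genes. The class of enzymes also holds Adamts4, a secreted metalloprotease and not an enzyme of lipids.

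The slices came from male Wistar rats of 5 to 7 weeks and formed 5 groups with 2 libraries each. SKF is an agonist of the D1 and D5 dopamine receptors, and the SKF group received it alone. The other groups received SKF with Aβ, here oligomers of the amyloid peptide at 200 nM, SKF with Aβ and CSP, SKF with Aβ and CSP-TTK21, or CSP-TTK21 alone, the label of which names no SKF and no Aβ. CSP is a glucose-derived carbon nanosphere, and TTK21 is an activator of the histone acetyltransferases CBP and p300 that is coupled to it. CSP and CSP-TTK21 were both used at 0.36 µg/ml. Slices were collected 1 h after treatment, which followed 30 min of basal stimulation, and 2 slices from 2 biological samples made up each repeat. Untreated slices are not analysed here, and the base of a comparison was SKF, SKF+Aβ or, for CSP-TTK21 against CSP, SKF+Aβ+CSP. Neither the labels nor the methods say which replicates shared an animal, and the p-values measure the spread between these 10 libraries only.

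Total counts were between 6753742 and 8473407 per library. Levels are given as normalized CPM (counts relative to the library's total, scaled by its TMM factor), and these are not corrected for gene length, so that levels are compared between libraries and not between genes. A gene was called where its p-value, adjusted over all 15032 genes that passed a filter on low counts, was under 0.05 in edgeR's quasi-likelihood test. All 34 members passed the filter. Mbp, the basic protein that holds the cytoplasmic faces of the myelin membrane together, ranked 2nd of all genes by total count and took between 0.605% and 1.51% of the counts of a library. The CA1 marker Wfs1 had between 98.1 and 372 CPM, while Prox1, which marks dentate granule cells and some interneurons, had between 142 and 248 CPM. The tissue label was thus met by CA1 transcripts, and transcripts of the neighbouring dentate gyrus or of interneurons were measured beside them. These are bulk libraries, in which fewer oligodendrocytes and less RNA per oligodendrocyte cannot be told apart.

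The members moved together from library to library, and replicates of the same group stood apart. The mean log2 CPM of the 34 members, centred on each gene's mean over the 10 libraries, came to -0.07 and 0.34 with SKF, to -0.10 and -0.47 with SKF+Aβ, 0.08 and 0.14 with SKF+Aβ+CSP, 0.43 and -0.19 with SKF+Aβ+CSP-TTK21, and -0.03 and -0.12 with CSP-TTK21 alone. SKF replicate 2 and SKF+Aβ+CSP-TTK21 replicate 1 were the high libraries, each the highest of all for 16 members. SKF+Aβ replicate 2 was the low library and the lowest of all for 25 members. Within SKF, 33 of 34 members were higher in replicate 2, with a median difference of -0.38 on the log2 scale, taken as replicate 1 minus replicate 2. Within SKF+Aβ+CSP-TTK21, 32 of 34 were higher in replicate 1, by a median of 0.58, and within SKF+Aβ 32 of 34 were higher in replicate 1, by a median of 0.35. The SKF+Aβ+CSP libraries and those of CSP-TTK21 alone differed in both directions, with 14 and 18 members higher in replicate 1 and single differences from -0.53 to 0.42 and from -0.51 to 0.82. The median within-group SD of log2 CPM was 0.309 over the members and 0.210 over all tested genes. It was 0.146 over the 5049 tested genes between the quartiles of the members' mean log2 CPM. The members were thus measured with a wider replicate spread than the table as a whole and than genes of like level.

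**Figure D1:**
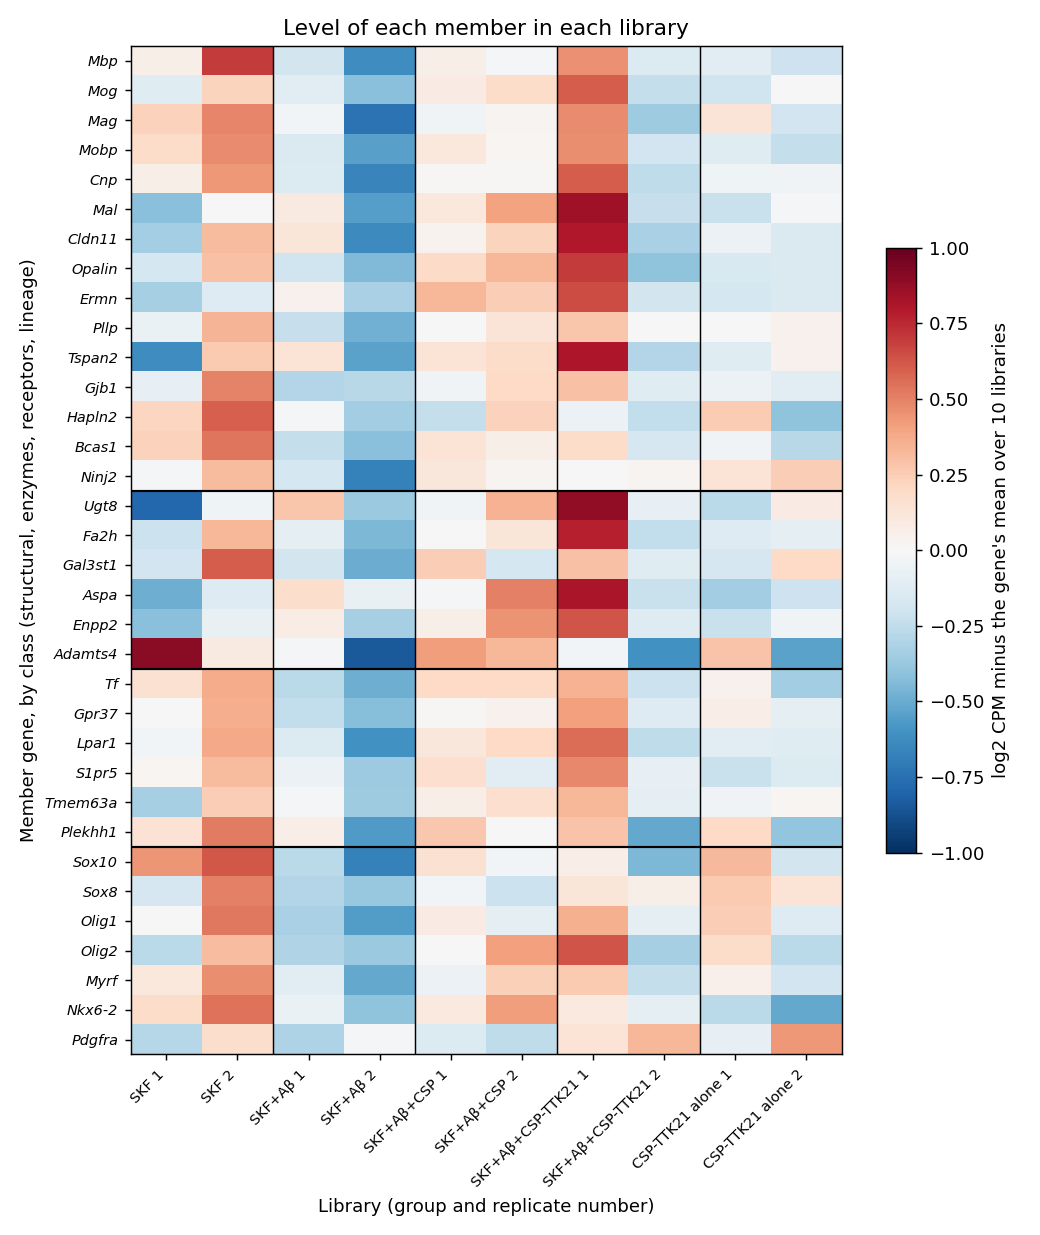
Level of each of the 34 members (rows, in the order structural, enzymes, receptors and lineage, divided by lines) in each of the 10 libraries (columns), as log2 CPM minus the gene's mean over the 10 libraries. Most rows are red in SKF 2 and SKF+Aβ+CSP-TTK21 1 and blue in SKF+Aβ 2, the lowest library for 25 members.

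The classes followed this order to different degrees. The structural myelin genes averaged -0.08 and 0.36 in SKF, -0.09 and -0.51 in SKF+Aβ, and 0.47 and -0.21 in SKF+Aβ+CSP-TTK21, so that the 2 replicates of SKF+Aβ+CSP-TTK21 lay farther apart than the highest and lowest group means, which were 0.14 for SKF and -0.30 for SKF+Aβ. The lineage and precursor genes averaged -0.0014 and 0.45 in SKF and -0.24 and -0.42 in SKF+Aβ, and these groups did not overlap. Those of the structural genes did not overlap either, though narrowly, with -0.080 the lowest in SKF and -0.091 the highest in SKF+Aβ. The same held for the transport and receptor genes, at -0.0069 and -0.11. The lipid and metabolic enzymes averaged -0.20 and 0.13 in SKF and 0.04 and -0.43 in SKF+Aβ, and here the groups overlapped. Against the mean profile of the structural genes over the 10 libraries, Pearson's r was 0.99 for Lpar1, a receptor for lysophosphatidic acid, 0.95 for Fa2h, 0.67 for Sox10, 0.62 for Ugt8, 0.46 for Adamts4 and 0.05 for Pdgfra, given as a description over libraries that share their depth and tissue with both values. The structural genes are themselves in that profile, so no value is given for them. Pdgfra, the receptor that marks precursors, was the member least like the rest.

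**Figure D2:**
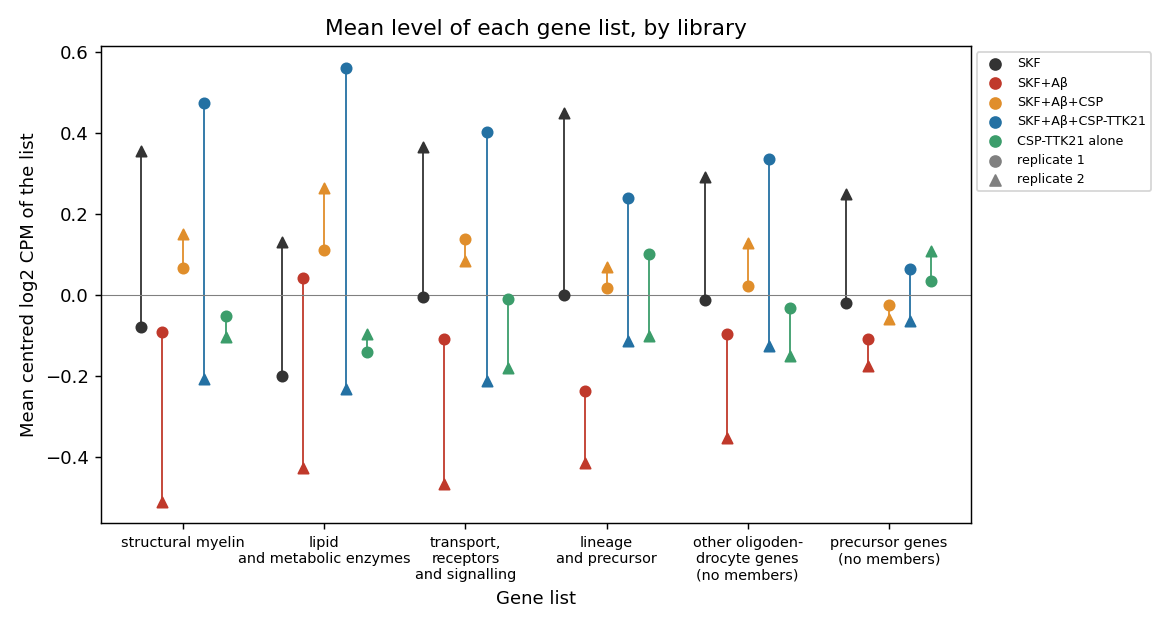
Mean centred log2 CPM (vertical axis) of the 4 member classes and of 2 lists without members (horizontal axis) in each library, with circles for replicate 1, triangles for replicate 2 and a line joining the 2 libraries of a group. The lineage and precursor genes are the member class in which SKF and SKF+Aβ are farthest from touching, while the SKF+Aβ+CSP-TTK21 libraries span from 0.47 to -0.21 for the structural genes.

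SKF+Aβ against SKF asks what Aβ changed in slices that received the agonist. Of the 34 members, 30 were lower with Aβ by their fold change and 4 were higher, with a median log2 fold change of -0.54 against -0.0013 over all genes tested. Only Sox10 and Bcas1 were called in edgeR, both lower, while 2.08% of all tested genes were called and 0.852% were called lower. At an unadjusted p under 0.05, 17 members were lower and 0 were higher, beside 22.8% of all genes in either direction and 10.9% lower. Both SKF+Aβ libraries were below both SKF libraries for 22 members, where 24.3% of all genes had such groups. The median was -0.53 for the structural genes, with 14 of 15 negative, -0.59 for the lineage genes, with 7 of 7 negative, -0.54 for the transport and receptor genes, with 6 of 6 negative, and -0.11 for the enzymes, with 3 of 6 negative. Without SKF replicate 2, the median was -0.28 for the structural and -0.40 for the lineage genes, and at an equal level of other oligodendrocyte genes, a fit described further on, it was -0.11 and -0.28.

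**Figure D3:**
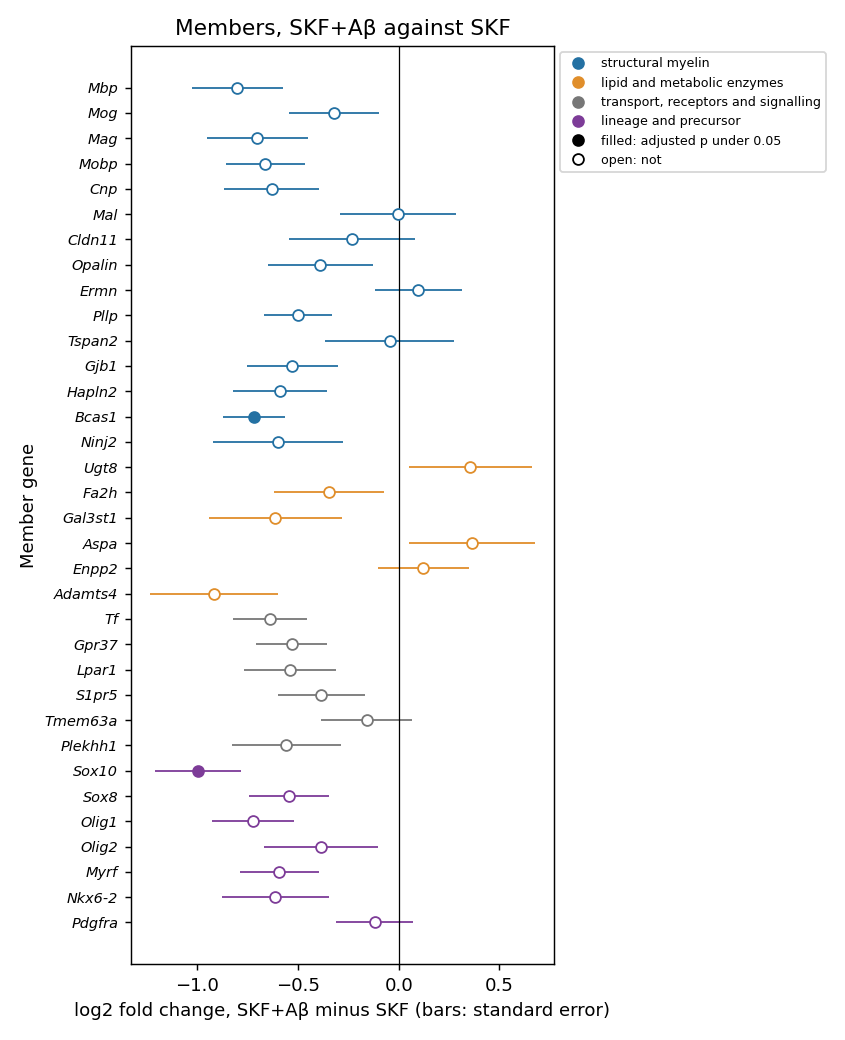
Log2 fold change of each member in SKF+Aβ against SKF (horizontal axis) with its standard error from the edgeR fit, by gene and coloured by class, with filled points where the adjusted p was under 0.05. Sox10 and Bcas1 are the filled points, at -0.995 and -0.72, and Ugt8, Aspa, Enpp2 and Ermn lie to the right of 0.

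Sox10 (ENSRNOG00000011305), the transcription factor that oligodendrocytes need at every stage, was at 60.0 and 68.1 CPM in SKF and at 36.6 and 27.6 CPM in SKF+Aβ. It was at 49.0 and 43.4 CPM with SKF+Aβ+CSP, at 46.4 and 32.4 CPM with SKF+Aβ+CSP-TTK21, and at 55.3 and 38.9 CPM with CSP-TTK21 alone. Both SKF libraries were above all the other 8, and both SKF+Aβ libraries were below both libraries with CSP. The log2 fold change in SKF+Aβ against SKF was -0.995 (SE 0.21, edgeR adjusted p = 0.0416). Bcas1 (ENSRNOG00000012906), a protein of newly myelinating oligodendrocytes, was at 647 and 800 CPM in SKF and at 466 and 412 CPM in SKF+Aβ. It was at 606 and 574 CPM with SKF+Aβ+CSP, 625 and 491 CPM with SKF+Aβ+CSP-TTK21, and 539 and 455 CPM with CSP-TTK21 alone. As for Sox10, no other library reached the SKF libraries, and the log2 fold change in SKF+Aβ against SKF was -0.72 (SE 0.16, edgeR adjusted p = 0.0422). Both calls stood close to the threshold. They were lost in 6 of the 10 fits that left out 1 library, with an adjusted p of up to 0.147 for either gene. Leaving out SKF replicate 1, SKF replicate 2, SKF+Aβ replicate 1 or SKF+Aβ replicate 2 gave an adjusted p of 0.0993, 0.0817, 0.147 and 0.115 for Sox10 and of 0.0726, 0.0992, 0.147 and 0.106 for Bcas1. Without SKF+Aβ+CSP replicate 1 or replicate 2, the values were 0.0683 and 0.0677 for Sox10 and 0.0691 and 0.069 for Bcas1. In a fit of only the 4 libraries compared, they were 0.067 and 0.0958, and neither was called. DESeq2 called both, with 6 further members, all lower, namely Mbp, Mobp, Tf, Gpr37, Olig1 and Myrf, where it called 8.93% of the genes that it gave an adjusted p and called 4.02% lower. The log2 fold change kept its sign in all these fits, between -1.23 and -0.83 for Sox10 and between -0.88 and -0.56 for Bcas1 when 1 library was left out.

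**Figure D4:**
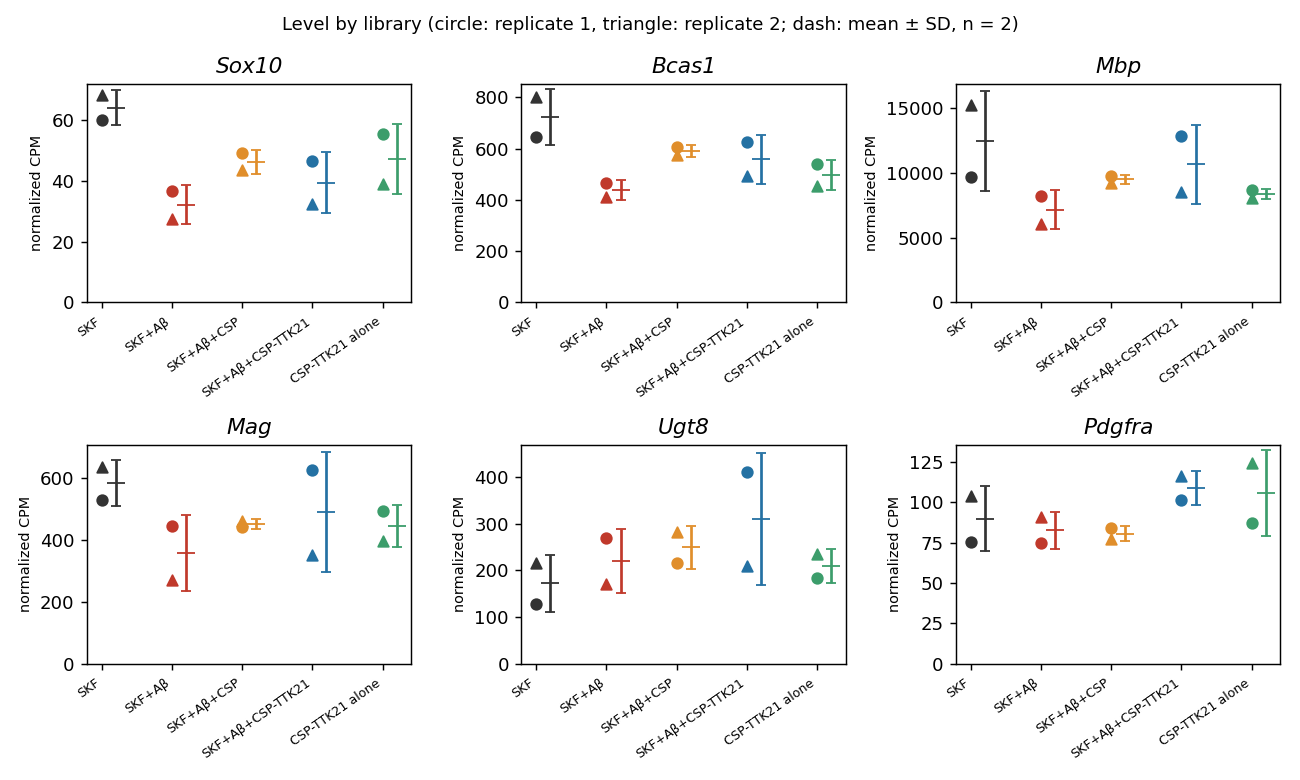
Normalized CPM (vertical axis, from 0) of Sox10, Bcas1, Mbp, Mag, Ugt8 and Pdgfra in each library by group, with circles for replicate 1, triangles for replicate 2 and dashes with bars for the mean ± SD (n = 2). Both SKF libraries are above the other 8 for Sox10 and Bcas1, whereas Ugt8 is lowest in an SKF library.

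Among the other structural genes, Mbp was at 9710 and 15218 CPM in SKF, 8217 and 6088 CPM in SKF+Aβ, 9750 and 9240 CPM with SKF+Aβ+CSP, 12819 and 8525 CPM with SKF+Aβ+CSP-TTK21, and 8654 and 8096 CPM with CSP-TTK21 alone. SKF replicate 2 was the highest library and SKF+Aβ replicate 2 the lowest, and the difference of -0.80 on the log2 scale between SKF+Aβ and SKF missed the threshold (SE 0.23, edgeR adjusted p = 0.0745). Mobp, a basic protein of compact myelin, was at 1194 and 1458 CPM in SKF, 952 and 723 CPM in SKF+Aβ, 1135 and 1065 CPM with SKF+Aβ+CSP, 1451 and 922 CPM with SKF+Aβ+CSP-TTK21, and 968 and 892 CPM with CSP-TTK21 alone. Its log2 fold change in SKF+Aβ against SKF was -0.66 (SE 0.20, edgeR adjusted p = 0.0815). Mag, the adhesion molecule that faces the axon, was at 531 and 637 CPM in SKF, 446 and 272 CPM in SKF+Aβ, 442 and 463 CPM with SKF+Aβ+CSP, 628 and 353 CPM with SKF+Aβ+CSP-TTK21, and 495 and 398 CPM with CSP-TTK21 alone. As for Mbp and Mobp, the SKF+Aβ libraries were below those of SKF, with a log2 fold change of -0.70 (SE 0.25) and an adjusted p of 0.125 in edgeR. Cnp, the cyclic nucleotide phosphodiesterase of uncompacted myelin, was at 839 and 1085 CPM in SKF, 733 and 509 CPM in SKF+Aβ, 813 and 811 CPM with SKF+Aβ+CSP, 1225 and 675 CPM with SKF+Aβ+CSP-TTK21, and 780 and 784 CPM with CSP-TTK21 alone. Its log2 fold change was -0.63 (SE 0.24), with an adjusted p of 0.137. For Mog, a glycoprotein of the outermost myelin layer, the groups overlapped, at 134 and 171 CPM in SKF, 135 and 109 CPM in SKF+Aβ, 155 and 166 CPM with SKF+Aβ+CSP, 223 and 124 CPM with SKF+Aβ+CSP-TTK21, and 127 and 145 CPM with CSP-TTK21 alone. Ermn, a cytoskeletal protein of the myelin sheath, was at 102 and 117 CPM in SKF, 132 and 102 CPM in SKF+Aβ, 162 and 152 CPM with SKF+Aβ+CSP, 202 and 113 CPM with SKF+Aβ+CSP-TTK21, and 114 and 116 CPM with CSP-TTK21 alone. It was the only structural gene with a positive log2 fold change in SKF+Aβ against SKF, of 0.10 (SE 0.22), and this turned to -0.02 without SKF replicate 1 and to -0.11 without SKF+Aβ replicate 1. A further 3 structural genes lay within 0.25 of 0 on the log2 scale, namely the sorting proteolipid Mal at -0.0037, the tetraspanin Tspan2 at -0.05 and the tight junction protein Cldn11 at -0.23. Mog was at -0.32 (SE 0.22), and the remaining 5, the membrane protein Opalin, the proteolipid Pllp, the connexin Gjb1, the link protein Hapln2 of the nodes and the adhesion molecule Ninj2, were between -0.60 and -0.39. None of these structural genes was called in edgeR, while DESeq2 called Mbp and Mobp.

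The sequences before the start of transcription are shown for 4 members that share a tissue and a cell type but differed in these libraries, namely Mag and Cnp, which had negative fold changes in SKF+Aβ, and Mal and Ugt8, which had none or a positive one. The set was chosen after these values were seen. Such a stretch was at hand for 25 of the 34 members, from RefSeq in the rat build GRCr8. Sox10 and Bcas1, the members called in edgeR, are not among these 25, so the counts of matches leave them out. The 250 bases upstream of the start are printed 5′ to 3′ on the strand of the gene, for the first promoter entry of each gene. They lie at chr1:95291045-95291294 on the minus strand for Mag, chr10:86011254-86011503 on the plus strand for Cnp, chr3:135341424-135341673 on the minus strand for Mal and chr2:217007168-217007417 on the minus strand for Ugt8. Capitals mark matches on either strand to ACAAAG or ACAATG, as bound by SOX factors, to CAGCTG or CATCTG, as bound by factors of the Olig family, and to CTGGCAC, as bound by Myrf.
Mag: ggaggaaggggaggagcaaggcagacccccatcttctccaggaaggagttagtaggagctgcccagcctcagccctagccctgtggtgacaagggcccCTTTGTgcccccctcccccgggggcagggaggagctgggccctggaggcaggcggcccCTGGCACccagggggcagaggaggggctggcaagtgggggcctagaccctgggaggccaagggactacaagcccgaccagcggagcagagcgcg
Cnp: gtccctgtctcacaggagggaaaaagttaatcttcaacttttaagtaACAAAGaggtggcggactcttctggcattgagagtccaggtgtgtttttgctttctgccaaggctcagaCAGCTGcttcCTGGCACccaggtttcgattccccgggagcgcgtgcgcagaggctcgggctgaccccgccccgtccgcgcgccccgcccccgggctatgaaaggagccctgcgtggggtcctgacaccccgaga
Mal: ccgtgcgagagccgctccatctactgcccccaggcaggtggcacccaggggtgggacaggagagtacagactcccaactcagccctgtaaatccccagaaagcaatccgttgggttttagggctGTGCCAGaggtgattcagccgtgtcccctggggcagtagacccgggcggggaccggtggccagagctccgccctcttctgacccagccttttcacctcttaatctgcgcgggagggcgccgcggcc
Ugt8: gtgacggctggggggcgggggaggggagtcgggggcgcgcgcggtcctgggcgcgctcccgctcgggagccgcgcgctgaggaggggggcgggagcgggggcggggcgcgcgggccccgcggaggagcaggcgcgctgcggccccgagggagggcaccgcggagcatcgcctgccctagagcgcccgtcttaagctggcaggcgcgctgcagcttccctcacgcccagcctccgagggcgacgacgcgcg
Mag held a SOX match and a Myrf match, Cnp held a match of each of the 3 kinds, Mal held a Myrf match, and Ugt8 held none of these letters in this window. Over the 25 members with a sequence, 9 held a SOX match, 8 an E-box match and 6 the Myrf letters, where 25.3%, 24.3% and 3.78% of 33469 rat promoters of the same length did. A member was counted if any of its promoters held a match, whereas the shares are per promoter, so counts and shares are not like for like. The members with the Myrf letters were Cnp, Hapln2, Mag, Mal, Olig2 and Opalin. These are matches of letters and were not tested for binding.

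The enzymes split in direction in SKF+Aβ against SKF. Ugt8, which makes galactosylceramide, the main glycolipid of myelin, was at 128 and 215 CPM in SKF and at 268 and 171 CPM in SKF+Aβ. It was at 216 and 282 CPM with SKF+Aβ+CSP, 410 and 209 CPM with SKF+Aβ+CSP-TTK21, and 184 and 235 CPM with CSP-TTK21 alone. SKF replicate 1 was the lowest library of all and SKF+Aβ+CSP-TTK21 replicate 1 the highest, and the log2 fold change of 0.36 in SKF+Aβ against SKF (SE 0.31) was not called. Aspa, which cleaves N-acetylaspartate and so frees acetate for myelin lipids, had 9.40 and 12.1 CPM in SKF and 15.1 and 12.7 CPM in SKF+Aβ, and was the only member with both SKF+Aβ libraries above those of SKF. Its log2 fold change was 0.36 (SE 0.31), and that of Enpp2, which makes lysophosphatidic acid outside the cell, was 0.12 (SE 0.23). Adamts4, a secreted metalloprotease of oligodendrocytes, went the other way. It was at 270 and 154 CPM in SKF, 143 and 80.8 CPM in SKF+Aβ, 194 and 182 CPM with SKF+Aβ+CSP, 142 and 95.1 CPM with SKF+Aβ+CSP-TTK21, and 176 and 99.9 CPM with CSP-TTK21 alone. Replicate 1 was above replicate 2 in each group, and both SKF+Aβ libraries were below those of SKF. The log2 fold change in SKF+Aβ against SKF of -0.92 missed the threshold (SE 0.32, edgeR adjusted p = 0.115). An edgeR fit that allowed for a shift between replicates 1 and 2 called Adamts4 lower (adjusted p = 0.0251), beside 2.83% of all genes. No source says that equal numbers share animals, so that fit is an alternative only, given with the processing. Fa2h, which hydroxylates the fatty acids of these lipids, and Gal3st1, which makes sulfatide, had log2 fold changes of -0.35 (SE 0.27) and -0.61 (SE 0.33), with overlapping groups.

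All 6 genes of transport, receptors and signalling had negative fold changes in SKF+Aβ against SKF, between -0.64 and -0.16, and none was called in edgeR, while DESeq2 called Tf and Gpr37. Tf, the iron carrier transferrin, was at 653 and 758 CPM in SKF, 487 and 418 CPM in SKF+Aβ, 673 and 674 CPM with SKF+Aβ+CSP, 746 and 507 CPM with SKF+Aβ+CSP-TTK21, and 605 and 461 CPM with CSP-TTK21 alone. SKF+Aβ was low and both libraries with CSP reached the range of SKF, with a log2 fold change of -0.64 in SKF+Aβ against SKF (SE 0.18, edgeR adjusted p = 0.0747). Gpr37, a receptor of maturing oligodendrocytes, was at 182 and 234 CPM in SKF, 153 and 135 CPM in SKF+Aβ, 183 and 187 CPM with SKF+Aβ+CSP, 241 and 166 CPM with SKF+Aβ+CSP-TTK21, and 190 and 169 CPM with CSP-TTK21 alone. Its log2 fold change in the same comparison was -0.53 (SE 0.18, edgeR adjusted p = 0.104). Lpar1 and the sphingosine phosphate receptor S1pr5 were also lower in both SKF+Aβ libraries than in both of SKF, as was Plekhh1, whereas Tmem63a, a mechanosensitive channel, overlapped between the groups.

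Beside Sox10, the lineage genes Olig1, Olig2, Sox8, Myrf and Nkx6-2 were lower in both SKF+Aβ libraries than in both SKF libraries, and none of these was called in edgeR, while DESeq2 called Olig1 and Myrf. Olig1, a factor of the oligodendrocyte lineage, was at 88.2 and 128 CPM in SKF, 70.7 and 60.1 CPM in SKF+Aβ, 93.6 and 83.1 CPM with SKF+Aβ+CSP, 114 and 82.8 CPM with SKF+Aβ+CSP-TTK21, and 105 and 81.0 CPM with CSP-TTK21 alone. The SKF+Aβ libraries were the lowest of the 10, with a log2 fold change against SKF of -0.72 (SE 0.20, edgeR adjusted p = 0.0722). Its neighbour in function, Olig2, which specifies the lineage, was at 35.4 and 53.0 CPM in SKF, 34.6 and 32.9 CPM in SKF+Aβ, 42.9 and 56.7 CPM with SKF+Aβ+CSP, 66.1 and 33.9 CPM with SKF+Aβ+CSP-TTK21, and 48.5 and 35.3 CPM with CSP-TTK21 alone. SKF replicate 1 was close to the SKF+Aβ libraries, and the log2 fold change was -0.39 (SE 0.28). Nkx6-2, a homeobox factor of myelinating cells, had few counts, at 8.16 and 10.5 CPM in SKF, 6.84 and 5.37 CPM in SKF+Aβ, 7.68 and 9.67 CPM with SKF+Aβ+CSP, 7.67 and 6.70 CPM with SKF+Aβ+CSP-TTK21, and 5.91 and 4.95 CPM with CSP-TTK21 alone. Its log2 fold changes against SKF were -0.61 with Aβ (SE 0.27) and -0.79 with CSP-TTK21 alone (SE 0.27), neither called. Pdgfra did not share this order, with 75.6 and 104 CPM in SKF, 74.6 and 90.9 CPM in SKF+Aβ, 83.9 and 77.4 CPM with SKF+Aβ+CSP, 102 and 116 CPM with SKF+Aβ+CSP-TTK21, and 87.2 and 125 CPM with CSP-TTK21 alone. Its groups overlapped between SKF and SKF+Aβ, at a log2 fold change of -0.12 (SE 0.19) that turned to 0.13 without SKF replicate 2. Sox8 and Myrf had log2 fold changes of -0.55 (SE 0.20) and -0.59 (SE 0.20).

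The groups with CSP and with CSP-TTK21 were set against SKF+Aβ to ask what each added to Aβ. No member was called in SKF+Aβ+CSP against SKF+Aβ or in SKF+Aβ+CSP-TTK21 against SKF+Aβ by edgeR, DESeq2 or limma, and edgeR called 0% of all genes in each. With no filter on low counts edgeR called members in both, beside 0.261% and 0.507% of all genes, as given with the processing. With CSP, 33 of 34 members had a positive log2 fold change, with a median of 0.39, and in 25 members both libraries were above both of SKF+Aβ, where 14.3% of all genes had such groups. At an unadjusted p under 0.05, 7 members were higher and 0 lower, beside 2.18% of all genes in either direction and 1.63% higher. Tf was one of these, at 0.57 (SE 0.18), with Bcas1 at 0.42 (SE 0.16), Sox10 at 0.53 (SE 0.22) and Adamts4 at 0.75 (SE 0.32). With CSP-TTK21, 34 of 34 had a positive log2 fold change, with a median of 0.45. Only 11 of them had both libraries above both of SKF+Aβ, beside 18.2% of all genes, and SKF+Aβ+CSP-TTK21 replicate 2, with a mean of -0.19 over the members, lay between the SKF+Aβ libraries at -0.10 and -0.47. At an unadjusted p under 0.05, 12 members were higher and 0 lower, beside 6.59% of all genes in either direction and 2.52% higher. Olig1 was at 0.59 (SE 0.20), Gpr37 at 0.50 (SE 0.18), Cnp at 0.61 (SE 0.24) and Mbp at 0.58 (SE 0.23). The median of the structural genes was 0.50 with both libraries and 0.021 without SKF+Aβ+CSP-TTK21 replicate 1, so this value rested on that library. For CSP it was between 0.21 and 0.64 when any 1 library was left out. At an equal level of other oligodendrocyte genes, a fit described further on, 18 members were higher and 16 lower with CSP. With CSP-TTK21, 15 were higher and 19 lower in that fit. The 2 comparisons share the SKF+Aβ libraries with each other and with SKF+Aβ against SKF, so that a low SKF+Aβ library moves all 3.

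In SKF+Aβ+CSP-TTK21 against SKF+Aβ+CSP, which differ by the coupled activator TTK21, no member was called by edgeR, DESeq2 or limma, with 0% of all genes called by edgeR. With no filter on low counts edgeR called a member, beside 1.22% of all genes, as given with the processing. The median log2 fold change was 0.07 over the members, with 24 of 34 positive, and 1 member, Pdgfra, had an unadjusted p under 0.05, beside 8.78% of all genes. Pdgfra was at 102 and 116 CPM with CSP-TTK21 and at 83.9 and 77.4 CPM with CSP, with a log2 fold change of 0.43 (SE 0.19, edgeR adjusted p = 0.564). Adamts4 was the member with the largest negative value, at -0.66 (SE 0.32), with 142 and 95.1 CPM against 194 and 182 CPM. The structural genes had a median of 0.11, which became -0.26 without SKF+Aβ+CSP-TTK21 replicate 1 and 0.43 without replicate 2, so that no direction could be read at this replication.

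Against SKF, the 3 remaining groups had 0 called members each in edgeR as set out above, DESeq2 and limma. With no filter on low counts edgeR called members in each of them. With the replicate number as a block it called Adamts4 in SKF+Aβ+CSP-TTK21 against SKF. Both are given with the processing. In SKF+Aβ+CSP against SKF, the median log2 fold change was -0.13, with 23 of 34 negative, and 3 members had an unadjusted p under 0.05, beside 0.02% of all genes called and 19.3% at the unadjusted threshold. These were Ermn at 0.52 (SE 0.21) and Enpp2 at 0.51 (SE 0.23), both higher, and Sox10 at -0.47 (SE 0.21). In SKF+Aβ+CSP-TTK21 against SKF, the median was -0.03, 4 members were higher and 4 lower at the unadjusted threshold, and 0.00665% of all genes were called, with 19.6% at the unadjusted threshold. Sox10 was at -0.70 (SE 0.21, edgeR adjusted p = 0.13), Adamts4 at -0.84 (SE 0.32) and Bcas1 at -0.37 (SE 0.15), while Ugt8 was at 0.85 (SE 0.31, edgeR adjusted p = 0.168) and Enpp2 at 0.54 (SE 0.23). CSP-TTK21 alone against SKF had a median of -0.22, with 25 of 34 negative, and 5 members lower at the unadjusted threshold, beside 0% of all genes called, 7.78% at the unadjusted threshold and 3.63% lower at it. Both libraries were below both of SKF for 11 members, where 17.3% of all genes had such groups. Without SKF replicate 2, the medians of the structural and the lineage genes in that comparison turned to 0.02 and 0.08, and they also took both signs in the other 2 comparisons when 1 library was left out. The 5 were Bcas1 at -0.54 (SE 0.16), Nkx6-2, Mobp at -0.51 (SE 0.20), Mbp at -0.57 (SE 0.23) and Tf at -0.41 (SE 0.18), each with an adjusted p of 0.633. In a test for any difference among the 5 groups, 0 members were called in edgeR and limma and 3 in DESeq2, namely Mbp, Bcas1 and Sox10, where DESeq2 called 4.89% of the genes that it gave an adjusted p. With no filter on low counts edgeR called members in this test too, beside 5.55% of all genes. In edgeR, 7 members had an unadjusted p under 0.05 in this test, beside 14.3% of all genes, with 0.00665% called. Bcas1 and Sox10 led the members, with an edgeR adjusted p of 0.213 and 0.218. All 4 comparisons against SKF share its 2 libraries, of which replicate 2 was above replicate 1 for 33 members.

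Because whole libraries were high or low for myelin transcripts, each member was also compared at an equal level of 32 other oligodendrocyte genes, none of them a member, whose mean centred log2 CPM entered the fit as a covariate. This fit was chosen after the values had been seen. The covariate was -0.01 and 0.29 in SKF, -0.10 and -0.35 in SKF+Aβ, 0.02 and 0.13 with SKF+Aβ+CSP, 0.34 and -0.13 with SKF+Aβ+CSP-TTK21, and -0.03 and -0.15 with CSP-TTK21 alone. It thus differed between the groups itself, and a difference at equal covariate is not the difference between the groups. In SKF+Aβ against SKF, Sox10 and Bcas1 were then at -0.60 (SE 0.21) and -0.42 (SE 0.15), with an edgeR adjusted p of 0.11 and 0.105, and were no longer called. Ugt8 was higher by 1.14 (SE 0.21, edgeR adjusted p = 0.0186), Tspan2 by 0.83 (SE 0.19, adjusted p = 0.0315), Cldn11 by 0.63 (SE 0.15, adjusted p = 0.0357) and Mal by 0.71 (SE 0.19, adjusted p = 0.046). These were the 4 members called, beside 5.51% of all genes and 3.02% called higher. The call of Ugt8 held in 6 of 10 fits that left out 1 library, those of Tspan2 and Cldn11 in 4 and that of Mal in 3. In SKF+Aβ+CSP against SKF, Ermn at 0.61 (SE 0.14), Ugt8 at 0.71 (SE 0.17) and Enpp2 at 0.60 (SE 0.14) were called higher, beside 2.64% of all genes, and in SKF+Aβ+CSP-TTK21 against SKF Ugt8 was, at 0.89 (SE 0.17, edgeR adjusted p = 0.0498), beside 0.572% of all genes. Of these 4 calls, none held in more than 3 of the 10 fits that left out 1 library. No member was called with the covariate in the other 4 comparisons. By sign alone, 14 members were higher and 20 lower in SKF+Aβ against SKF at an equal covariate, against 4 and 30 without it. For CSP-TTK21 alone against SKF, 22 were higher and 12 lower at an equal covariate, against 9 and 25 without it, with 0 members called in either fit. The members moved together between libraries, so such signs are not 34 separate observations. For SKF+Aβ+CSP against SKF+Aβ the members were 18 higher and 16 lower, and for SKF+Aβ+CSP-TTK21 against SKF+Aβ 15 higher and 19 lower, against 33 and 34 positive without it.

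Library by library, the level relative to the other oligodendrocyte genes put the SKF libraries at neither end for 24 of the 34 members. For Ugt8 it was -0.78 and -0.33 on the log2 scale in SKF and 0.37 and -0.02 in SKF+Aβ, with -0.06 and 0.22, 0.55 and 0.05, and -0.23 and 0.24 in the other groups in the order given above. Both SKF libraries were below the other 8 for 6 members, Ugt8, Mal, Ermn, Aspa, Enpp2 and Tmem63a, but 14.1% of all genes had this pattern, a share close to that of the members. Both were above the other 8 for Mag, Mobp, Bcas1 and Myrf, and 0.705% of all genes had that pattern. The relative level takes the covariate from every gene, 0.29 in SKF replicate 2 and -0.35 in SKF+Aβ replicate 2. Genes that do not follow oligodendrocytes are thereby pushed down in SKF replicate 2. Neither share is thus a no-change value for oligodendrocyte genes. For Bcas1 the relative level was 0.24 and 0.25 in SKF and at most 0.11 in any other library. Sox10 had 0.45 and 0.33 in SKF, and CSP-TTK21 alone replicate 1 reached 0.36. Mog was between -0.17 and 0.27 in the 10 libraries.

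**Figure D5:**
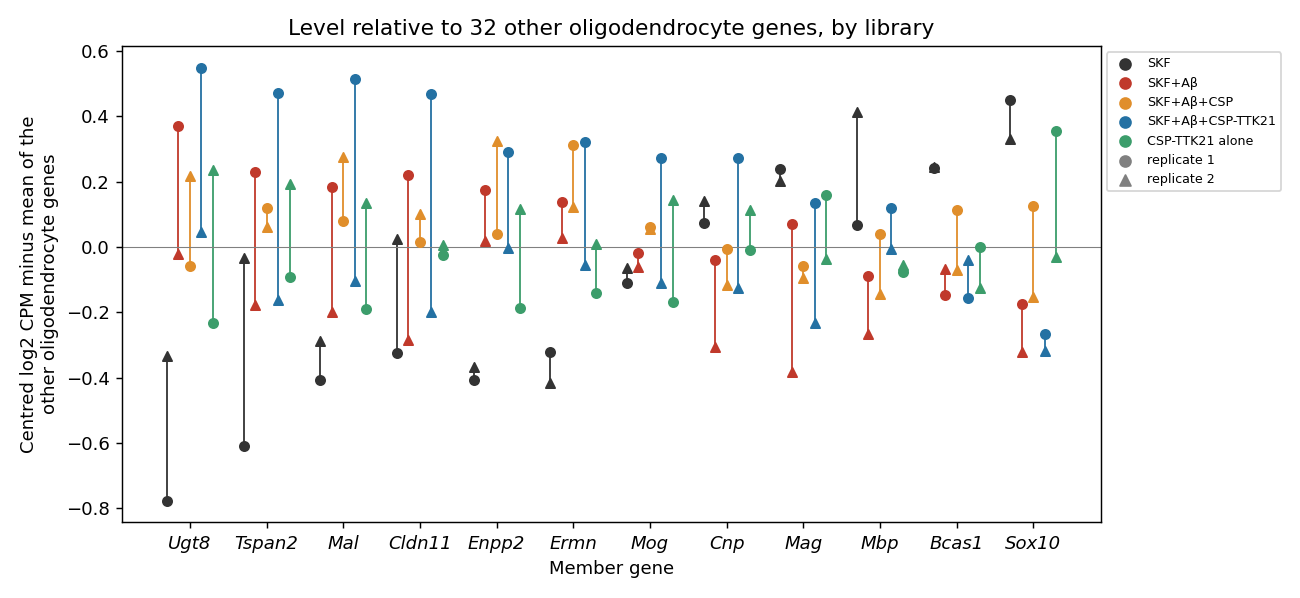
Level of 12 members (horizontal axis) relative to 32 other oligodendrocyte genes, as centred log2 CPM minus the mean centred log2 CPM of those genes (vertical axis), in each library, with circles for replicate 1, triangles for replicate 2 and a line joining the 2 libraries of a group. The SKF libraries are the lowest for Ugt8, Mal, Enpp2 and Ermn and the highest for Mag and Bcas1.

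Other genes of the lineage and its lipids were read from lists that hold no member. Among the 32 other oligodendrocyte genes tested, 29 had a negative log2 fold change in SKF+Aβ against SKF, with a median of -0.34, and 12 were lower at an unadjusted p under 0.05, with 0 called in edgeR. Qdpr, a reductase of biopterin metabolism, was at -0.69 (SE 0.17, edgeR adjusted p = 0.0518). Of 13 precursor genes tested, 8 were negative, with a median of -0.53, 5 were lower at the unadjusted threshold, and 0 were called in edgeR. The proteoglycan Cspg4, which marks precursors, was at -0.60 (SE 0.17, edgeR adjusted p = 0.0761), while Vcan and Ptprz1 were at 0.36 (SE 0.20) and 0.31 (SE 0.19). The precursor genes were thus mixed in sign. Of 18 genes of cholesterol synthesis, 12 were negative, with a median of -0.17, 5 were lower at the unadjusted threshold, and 0 were called in edgeR.

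Markers of other cells also moved between these libraries, and their part in the results was not tested. In SKF+Aβ against SKF, 7 of 8 microglial markers had negative fold changes, with a median of -0.32. Their summed level was 122 and 203 CPM in SKF, between 103 and 136 CPM in SKF+Aβ, between 101 and 118 CPM with SKF+Aβ+CSP, between 128 and 189 CPM with SKF+Aβ+CSP-TTK21 and between 143 and 188 CPM with CSP-TTK21 alone, and no marker was at 0. Of 6 astrocyte markers, 4 were negative, with a median of -0.15 and sums from 3216 to 4311 CPM in SKF and from 3240 to 3531 CPM in SKF+Aβ. Of 5 excitatory neuron markers, 4 were negative, with a median of -0.30 and sums from 4237 to 4721 CPM in SKF and from 3487 to 3871 CPM in SKF+Aβ, and these groups did not overlap. The 3 CA1 markers summed to 318 and 474 CPM in SKF and to between 315 and 542 CPM in SKF+Aβ. The dentate granule markers had a median of 0.37, with 4 of 5 positive and Prox1 at 0.37 (SE 0.18), the interneuron markers 0.10, the choroid plexus markers 0.19 and the endothelial and mural markers -0.06. In SKF+Aβ+CSP-TTK21 against SKF+Aβ, the median was 0.49 for the microglial markers, with 7 of 8 positive, 0.31 for the astrocyte markers, with 6 of 6 positive, 0.24 for the interneuron markers, 0.19 for the excitatory neuron markers, with 5 of 5 positive, and -0.37 for the endothelial and mural markers, beside 0.45 for the members. In SKF+Aβ+CSP against SKF+Aβ, the microglial, astrocyte and excitatory neuron medians were -0.12, -0.08 and -0.10 and that of the endothelial and mural markers was 0.28, beside 0.39 for the members. In SKF+Aβ+CSP-TTK21 against SKF+Aβ+CSP, the microglial, astrocyte, interneuron and excitatory neuron medians were 0.57, 0.42, 0.27 and 0.25. That of the endothelial and mural markers was -0.73, beside 0.07 for the members. In SKF+Aβ+CSP against SKF, the microglial median was -0.52, with 8 of 8 negative, and the endothelial and mural one 0.31, beside -0.13 for the members. None of these markers was called in edgeR in any comparison.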

How the data were processed

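RNA was measured in 10 libraries, 2 in each of 5 groups, with groups and replicate numbers from the labels. The authors deposited whole-number counts per gene, with no normalization and no pooling of replicates. Their methods name a stranded kit, Trim Galore, Samtools and TopHat2 with Cufflinks and Cuffdiff, the rat genome Rnor_6.0 as the one indexed and the mouse build mm10 as the one aligned to, whereas the submitters' processing notes name STAR, RSEM, HISAT2 and Salmon and the human build GRCh38 for these rat samples. Which program and annotation gave the counts, and whether the counting used strand, is not given in the sources used here, so overlapping genes and near-identical copies are uncertain.

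The counts were tested with edgeR 4.0.16 (R 4.3.3), in which filterByExpr kept 15032 of 32545 genes, and TMM factors and 1 quasi-likelihood fit of 5 group means over 10 libraries were used (common biological coefficient of variation 0.136), with 7 comparisons and a test for any difference among the 5 groups. P-values were adjusted by Benjamini-Hochberg over all genes tested. Log2 CPM used a prior count of 2. Replicates differed by 4.78 to 12.3 times the sampling noise (chi-square per degree of freedom), so none was merged. The steps were tested on simulated counts. Alternatives were the replicate number as a block, only the libraries compared, DESeq2 1.42.0, limma 3.58.1, RLE factors, no filter, at least 10 counts in every library, each library left out in turn, a log2 fold change beyond 1.5 in addition, unadjusted p-values and, chosen after the data were seen, the level of other oligodendrocyte genes as a covariate.

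The members and lists were chosen with earlier results of these data known. Values per library are given for members called in any comparison, for the 10 with the lowest p among the 5 groups, and for Mbp, Mog, Mag, Cnp, Sox10, Olig2 and Pdgfra. Those of Ugt8 and Aspa were chosen after their values were seen. Genes of other lists were named as defining markers or after their values were seen.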

Additional observations from a re-analysis of the deposited data

How the results depend on the processing

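Members called in SKF+Aβ against SKF numbered 2 as reported and 2 with RLE factors, limma and a minimum of 10 counts, which called 2.04%, 2.33% and 3.36% of all genes. They numbered 0 when only the libraries compared were fitted, 8 with DESeq2, 14 with no filter on low counts, 0 where the log2 fold change also had to pass 1.5, 17 at an unadjusted p under 0.05 and 4, other ones, with the covariate that was added after the data were seen. All genes called in that comparison numbered 312 as reported, 12 in the libraries compared, 822 with DESeq2, 1311 with no filter and 828 with the covariate. With 1 library left out the number of members called moved in both directions. The calls were lost without any 1 of the SKF, SKF+Aβ and SKF+Aβ+CSP libraries. In the other comparisons, with 0 members as reported, no filter gave 2 for SKF+Aβ+CSP, 6 for SKF+Aβ+CSP-TTK21 and 4 for CSP-TTK21 alone against SKF, 3 for SKF+Aβ+CSP against SKF+Aβ, 8 for the same with CSP-TTK21, 1 between these 2, and 18 for any difference among the groups, where DESeq2 gave 3. With no filter, the share of all genes called was 5.19% in SKF+Aβ against SKF, and 2.99%, 3.57%, 0.622%, 0.261%, 0.507%, 1.22% and 5.55% in the order just given. The unadjusted threshold gave 3, 8, 5, 7, 12, 1 and 7 in the same order, and the covariate gave 3 and 1 in the first 2. Without any 1 library, 0 members were called in each of these. The cause of these moves was not tested.

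The median log2 fold change of the structural genes in SKF+Aβ against SKF was -0.11 with the covariate and between -0.78 and -0.28 with 1 library left out, and that of the lineage genes was -0.28 and between -0.82 and -0.40. With the covariate, CSP-TTK21 alone against SKF gave 0.092 for the structural and 0.068 for the lineage genes. Against SKF+Aβ, the values were -0.011 and 0.041 for SKF+Aβ+CSP, and -0.012 and -0.062 for the group with CSP-TTK21. With 1 library left out, the structural and the lineage medians lay between -0.29 and 0.13 and between -0.38 and 0.058 for SKF+Aβ+CSP against SKF, between -0.36 and 0.19 and between -0.44 and 0.16 for SKF+Aβ+CSP-TTK21 against SKF, and between -0.45 and 0.02 and between -0.46 and 0.077 for CSP-TTK21 alone against SKF. Against SKF+Aβ they lay between 0.21 and 0.64 and between 0.33 and 0.60 for SKF+Aβ+CSP, and between 0.021 and 0.80 and between 0.13 and 0.52 for SKF+Aβ+CSP-TTK21, and between the 2 last groups they lay between -0.26 and 0.43 and between -0.33 and 0.23.

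With the covariate, 14 members were higher and 20 lower in SKF+Aβ against SKF, against 4 and 30 as reported. Among the members named by rule, signs turned there for Mog and Olig2, at 0.20 and 0.33 with the covariate, for Ermn, at -0.02 without SKF replicate 1 and -0.11 without SKF+Aβ replicate 1 (up to 0.25 with another library left out), and for Pdgfra, at 0.13 without SKF replicate 2 and 0.00098 without SKF+Aβ replicate 1 (down to -0.35 with another left out). Neither labels nor methods say that replicate numbers pair animals, and the distances of equally numbered libraries to their group means had correlations between -0.069 and 0.237 over all genes and between -0.31 and 0.53 over the members. With a block for the replicate number, 3 members were called in SKF+Aβ against SKF, Adamts4 (log2 fold change -0.92, adjusted p = 0.0251 in edgeR) with Sox10 and Bcas1, 1 in SKF+Aβ+CSP-TTK21 against SKF, again Adamts4, at -0.81 (adjusted p = 0.0485), and 0 in the others, beside 2.83% and 0.718% of all genes called. With 2 libraries a group, differences inside the replicate spread could not be resolved, and genes with few counts such as Ninj2 and Nkx6-2 carry counting error beside it.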

Other observations

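Outside the members, the genes whose log2 CPM followed the mean profile of the 15 structural myelin genes most closely over the 10 libraries were Apod, Sirt2, Cd9 and Car2, with Pearson's r of 0.95, 0.95, 0.94 and 0.93, all 4 in the list of other oligodendrocyte genes. Apod, an apolipoprotein, ranged from 116 to 247 CPM, and Sirt2, a deacetylase, from 209 to 368 CPM. The next 6 were in no list used here, namely Hhip, Erbb3, Fbxo32, Lgi3, Bgn and Eml1, with r between 0.92 and 0.93. Erbb3, a neuregulin receptor, ranged from 44.9 to 98.1 CPM. These values describe libraries that share tissue and depth, and no test was made on them.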
